A study of Mus musculus with 9 samples.

Results

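C6, Ghr and Npr3 are 3 protein-coding genes from the first 12 Mb of mouse chromosome 15 that were chosen for their fall in lymph nodes of Tyr-NrasQ61K mice against lymph nodes of wild-type (WT) mice. They were set beside 7 neighbours from the same stretch, C7, C9, Oxct1, Dab2, Fyb, Rictor and Osmr. The question was whether the fall follows position on the chromosome. These 7 are some of the genes of the stretch and not always the nearest to the 3, and earlier results of these data were known when they were chosen. These 10 genes were taken from a table of 37801 usable entries, in which each gene has 1 value in each of 9 libraries, and where a symbol stood on several rows, as Dab2 did on 2, the row with the highest mean was used. The values are FPKM, fragment counts scaled to the length of the transcript and the size of the library, so levels of different genes can be compared per length. Because C6, Ghr and Npr3 were selected on the values of the Tyr-NrasQ61K and WT libraries, their levels in that contrast are given as a description, without a test.

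In all, 3 libraries came from each of 3 groups. The Tyr-NrasQ61K libraries came from Cre-negative mice with wild-type MHC class II that carry the NrasQ61K transgene, which the tyrosinase promoter drives in melanocytes. The MHCII-KO libraries came from Cre-positive mice that carry the same transgene and are labelled as MHC class II knockouts; the labels name neither the deleted gene nor the promoter behind Cre. The WT libraries had wild-type Nras and wild-type MHC class II. The strain label is FVB/NJ (Cross) for both transgenic groups and FVB/NJ for WT, while the protocol text describes the controls as littermates without the transgene, so the transgene and any difference in strain background cannot be told apart in a comparison with WT. Ages are not given. The sample source is labelled as nevus melanocytes, whereas the methods of the study describe lymph nodes. The labels give each library an identification number of its own without saying that each is a separate mouse, so p-values cover the spread among the samples alone.

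The complement proteins C6, C7, C8 and C9 are the terminal components of complement. After the cleavage of C5 they assemble one after another on a membrane into the membrane attack complex, and the liver is the main source of most of them in plasma. Ghr encodes the growth hormone receptor, a cytokine receptor without kinase activity of its own that signals through the kinase JAK2 and the factor STAT5, and in mice the same gene also gives a soluble hormone-binding protein by alternative splicing. Npr3 encodes the natriuretic peptide receptor C, which lacks a guanylyl cyclase domain and clears natriuretic peptides from the circulation, and which is well known in adipose tissue. The neighbours have unrelated roles: Oxct1 encodes the mitochondrial enzyme that starts the use of ketone bodies, Dab2 a clathrin adaptor for endocytosis of low-density lipoprotein receptor family members, Fyb an adaptor that links T cell receptor signalling to integrins, Rictor a defining subunit of mTOR complex 2, and Osmr a receptor chain for oncostatin M.

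The sequences in front of the start sites are shown because the 3 genes shared a pattern of levels that C7, the nearest neighbour of C6 among the members, did not share. Each line gives the last 150 bases before a RefSeq start of the build GRCm38.p6, read 5′ to 3′ on the strand of the gene, and capitals mark matches on either strand to any of 5 motifs, namely the TATA box TATAAA, the sequence CCAAT, the GC box written as GGGCGG, the E-box written as CACGTG and the STAT motif, which is TTCNNNGAA. The lines were taken from chr15:4727060-4727209 on the plus strand for C6 and, on the minus strand, from chr15:3583353-3583502 and chr15:3581843-3581992 for the 2 listed starts of Ghr, chr15:11907372-11907521 for Npr3 and chr15:5063774-5063923 for C7.
C6: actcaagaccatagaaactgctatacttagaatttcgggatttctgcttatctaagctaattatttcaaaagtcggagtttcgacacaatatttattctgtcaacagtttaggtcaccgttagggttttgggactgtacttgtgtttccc
Ghr, start 1: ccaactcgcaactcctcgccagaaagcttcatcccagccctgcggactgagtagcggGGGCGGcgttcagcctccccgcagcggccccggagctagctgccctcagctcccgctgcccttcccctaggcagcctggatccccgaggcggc
Ghr, start 2: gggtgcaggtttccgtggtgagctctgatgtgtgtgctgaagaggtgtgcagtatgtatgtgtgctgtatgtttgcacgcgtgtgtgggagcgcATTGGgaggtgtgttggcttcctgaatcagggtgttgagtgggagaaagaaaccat
Npr3: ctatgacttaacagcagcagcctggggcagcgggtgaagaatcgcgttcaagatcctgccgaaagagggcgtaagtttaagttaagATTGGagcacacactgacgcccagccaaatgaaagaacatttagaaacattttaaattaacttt
C7: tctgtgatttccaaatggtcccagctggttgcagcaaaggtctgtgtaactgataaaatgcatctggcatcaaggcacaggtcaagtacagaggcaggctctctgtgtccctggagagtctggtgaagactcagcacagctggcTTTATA

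Within 250 bases before the start, none of the 5 motifs was found for C6. The Npr3 sequence held 1 CCAAT match, which begins at -64 from the start. Start 1 of Ghr held 2 matches to CCAAT (-202 and -170) and 2 to GGGCGG (-174 and -93), of which the matches at -174 and -170 overlap, and start 2 held TATAAA at -188 and CCAAT at -56. In front of C7 there was TATAAA at -6 and TTCNNNGAA at -164. No motif was common to the 3 genes. Among 32851 RefSeq promoters searched in the same way, 12.4% held TATAAA, 33.8% CCAAT, 32.7% GGGCGG, 6.0% CACGTG and 7.0% TTCNNNGAA, so the matches found are letters that many promoters hold. The base composition differed, with 40.0% G and C for C6, 38.8% for Npr3, 65.6% and 52.0% for the 2 Ghr starts and 43.2% for C7.

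Several features of the libraries bear on all of these values. The B cell receptor chain gene Cd79b was high throughout, with 47.0 to 172 FPKM for Tyr-NrasQ61K, 68.8 to 147 for MHCII-KO and 153 to 228 for WT. Dct, a melanin synthesis gene, was at 2.77 to 5.81 FPKM for Tyr-NrasQ61K, 0.847 to 3.25 for MHCII-KO and at most 0.0508 for WT. H2-Ab1, an MHC class II chain, was not reduced to background in the MHCII-KO libraries (108 to 271 FPKM, against 149 to 276 in Tyr-NrasQ61K and 101 to 183 in WT libraries). On the first principal component, which held 32.1% of the variance, replicate 2 of the Tyr-NrasQ61K group and replicate 2 of the MHCII-KO group lay far from the rest (scores of 101.9 and 78.6, against -74.1 to 21.8 for the others), and Tyr-NrasQ61K replicate 3 on the second (-99.95). Depth, estimated from the value of 1 fragment in genes with 1 exon, ranged from 6100000 to 14000000 fragments over 8 libraries and was not recovered for Tyr-NrasQ61K replicate 3. In bulk samples, fewer cells of a type and less RNA per cell cannot be told apart.

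C6 was under 1 FPKM in every transgenic library and well above it in WT. Its FPKM was 0.385, 0.316 and 0.385 in Tyr-NrasQ61K libraries, 0.269, 0.358 and 0.327 in MHCII-KO libraries, and 12.2, 6.22 and 13.6 in WT libraries. All transgenic libraries lay below every WT library, a pattern that the choice of the gene used for Tyr-NrasQ61K and that 10.5% of all genes tested showed there and 23.4% for MHCII-KO. The lowest WT library was replicate 2. The mean of 0.362 ± 0.0399 in Tyr-NrasQ61K libraries was 29.5-fold below the mean of 10.7 ± 3.93 in WT libraries (SD, n = 3 each). On the log2(FPKM + 1) scale, which understates the change of low genes, the fold change was -3.04 (SE 0.257). From the estimated depths and a transcript of 2876 bases, about 12 and 6 fragments stood behind C6 in Tyr-NrasQ61K replicates 1 and 2 and 7 to 13 in MHCII-KO libraries, against 231 to 505 in WT libraries. C6 reached the FPKM of 1 needed for testing in the 3 WT libraries only, so it could be tested only because it is high there, and the same is true of Npr3.

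C7 lies 174 kb from C6 and encodes the next protein of the same complex, but its values went the other way. Its FPKM was 5.82, 2.79 and 3.78 in Tyr-NrasQ61K libraries, 3.54, 5.72 and 7.34 in MHCII-KO libraries, and 1.70, 0.779 and 2.43 in WT libraries. All 6 transgenic libraries were above all 3 WT libraries, as was the case for 8.18% of all genes tested with Tyr-NrasQ61K and for 7.97% with MHCII-KO. The log2 fold change was 0.97 (SE 0.337, adjusted p = 0.302 from limma) for Tyr-NrasQ61K and 1.32 (adjusted p = 0.257) for MHCII-KO against WT, and neither passed the threshold of 0.05. With weights for the libraries both were called (adjusted p = 0.0180 and 0.00529, over ranges of 0.0180 to 0.643 and 0.00529 to 0.746 in all alternatives). The ratio of C6 to C7 was 0.0662, 0.113 and 0.102 in Tyr-NrasQ61K libraries and 0.0758, 0.0626 and 0.0446 in MHCII-KO libraries, against 7.18, 7.99 and 5.62 in WT libraries. A ratio within a library does not depend on the scaling between libraries. C9, which lies 3.13 Mb from the start of Ghr and encodes the protein that forms the pore, was listed at 0 in every library and was not tested.

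**Figure D1:**
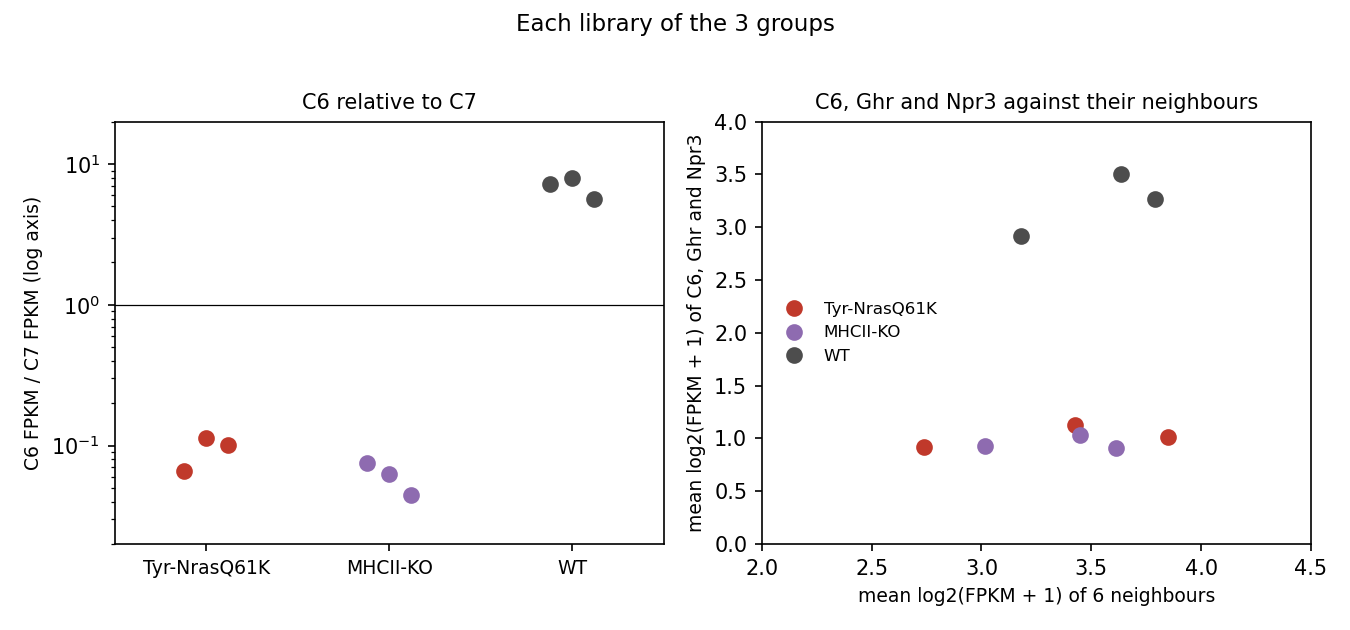
The left plot gives the FPKM of C6 divided by that of C7 on a log axis, and the right plot the mean log2(FPKM + 1) of C6, Ghr and Npr3 against that of 6 neighbours, with 1 point for each library and colours for the groups. The ratio was at most 0.113 in Tyr-NrasQ61K and at most 0.0758 in MHCII-KO libraries and at least 5.62 in WT libraries. On the right the WT libraries lie above both transgenic groups, which overlap in height, and all groups overlap along the horizontal axis. The difference in height between Tyr-NrasQ61K and WT libraries follows from the choice of C6, Ghr and Npr3.

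The rest of the terminal complement pathway gave no call. Among 11 listed genes with values, 7 were tested. With C6 set aside because it was chosen for its fall, none was called by limma in either contrast with WT. Hc, the gene of C5, was at 0.191 to 0.514 FPKM in Tyr-NrasQ61K, 0.165 to 0.507 in MHCII-KO and 0.646 to 1.29 in WT libraries and was not tested. C8a was at most 0.147 FPKM in any library, and C8b was listed at 0 throughout. C8g, a C8 chain that belongs to another protein family, was at 0.861 to 1.81, 1.29 to 1.77 and 0.477 to 1.06 FPKM in Tyr-NrasQ61K, MHCII-KO and WT libraries. Cd59a, which blocks the assembly of the complex on host cells, had 1.22 ± 0.750 FPKM in Tyr-NrasQ61K libraries and 0.792 ± 0.293 in MHCII-KO libraries, against 3.25 ± 0.270 in WT libraries (SD, n = 3 each). Its log2 fold changes were -1.003 and -1.26, with adjusted p = 0.230 and 0.205 from limma. Both transgenic groups lay wholly below the WT libraries, as did 10.5% and 23.4% of all genes tested, and they overlapped with each other. Of the soluble inhibitors, Clu was at 178.7 ± 44.0 FPKM in Tyr-NrasQ61K and 161 ± 18.0 in MHCII-KO libraries, against 229 ± 84.7 in WT libraries, and Vtn at 4.48 ± 1.11, 5.11 ± 0.824 and 10.9 ± 5.88, with overlapping groups in all of these comparisons.

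Ghr had the steadiest values of the 3 genes. Its FPKM was 3.99, 3.89 and 3.60 in Tyr-NrasQ61K libraries, 4.004, 3.88 and 3.30 in MHCII-KO libraries, and 12.4, 11.9 and 9.67 in WT libraries. Every transgenic library lay below every WT library, a separation that the choice of Ghr used for Tyr-NrasQ61K. Of all genes tested, 10.5% showed it there and 23.4% for MHCII-KO. Replicate 2 of either transgenic group, which stood apart over all genes, did not stand apart for Ghr. The mean was 3.83 ± 0.200 FPKM in Tyr-NrasQ61K libraries, 2.96-fold below 11.3 ± 1.46 in WT libraries (SD, n = 3 each), with a log2 fold change of -1.35 (SE 0.161). Unlike C6 and Npr3, Ghr was above 1 FPKM in all 9 libraries.

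The partners of the receptor were not called. Of 14 genes of growth hormone signalling 12 were tested. With Ghr set aside because it was chosen for its fall, none passed the threshold in either contrast with WT. Jak2, the kinase bound to the receptor, was at 11.9 ± 4.61 FPKM in Tyr-NrasQ61K and 11.04 ± 2.96 in MHCII-KO libraries, against 21.5 ± 4.22 in WT libraries (SD, n = 3 each), with log2 fold changes of -0.85 and -0.91 (adjusted p = 0.318 and 0.329 from limma). Stat5b, the factor it activates, was at 10.6 ± 3.06, 9.56 ± 1.98 and 13.7 ± 1.62 FPKM in Tyr-NrasQ61K, MHCII-KO and WT libraries. Igf1, a growth factor that growth hormone induces, was at 3.01 to 10.7, 4.93 to 8.58 and 5.31 to 14.9 FPKM, so that the groups overlapped. The growth factor binding protein gene Igfbp3 had log2 fold changes of -0.58 and -0.48, and Ptpn6, a phosphatase that acts on cytokine receptors, of 0.53 and -0.62, none past the threshold.

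Npr3 was low in both transgenic groups and varied most between their libraries. Its FPKM was 0.496, 0.0605 and 0.287 in Tyr-NrasQ61K libraries, 0.362, 0.0345 and 0.159 in MHCII-KO libraries, and 7.28, 3.63 and 4.76 in WT libraries. The lowest value of each transgenic group was that of replicate 2, where an estimated 3 and 2 fragments were counted, against 323 to 423 in WT libraries. With 0.281 ± 0.218 FPKM in Tyr-NrasQ61K libraries and 5.23 ± 1.87 in WT libraries (SD, n = 3 each), the means differed 18.6-fold, and the log2 fold change was -2.25 (SE 0.250). Without both of these libraries the fold change was -2.12.

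The guanylyl cyclase receptors of the same peptides had smaller fold changes, and none was called. Npr1, the receptor for the atrial and brain peptides, was at 3.99 ± 0.739 FPKM in Tyr-NrasQ61K libraries and 3.11 ± 0.757 in MHCII-KO libraries, against 5.87 ± 2.06 in WT libraries (SD, n = 3 each), with overlap in both cases. Npr2, the receptor for the C-type peptide, was at 1.92 ± 0.321, 1.78 ± 0.0918 and 3.06 ± 0.632 FPKM in Tyr-NrasQ61K, MHCII-KO and WT libraries. Its log2 fold changes were -0.47 and -0.54 (adjusted p = 0.315 and 0.329 from limma). Both transgenic groups lay wholly below the WT libraries, as did 10.5% and 23.4% of all genes tested. The peptide genes were hardly seen: Nppa reached 0.170 FPKM and Nppc 0.137 FPKM at most, and Nppb was listed at 0. Pde2a, a phosphodiesterase that degrades the messenger made by these receptors, had log2 fold changes of -0.28 and -0.31. Of the 10 listed genes 5 were tested. With Npr3 set aside because it was chosen for its fall, none was called in either contrast with WT.

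**Figure D2:**
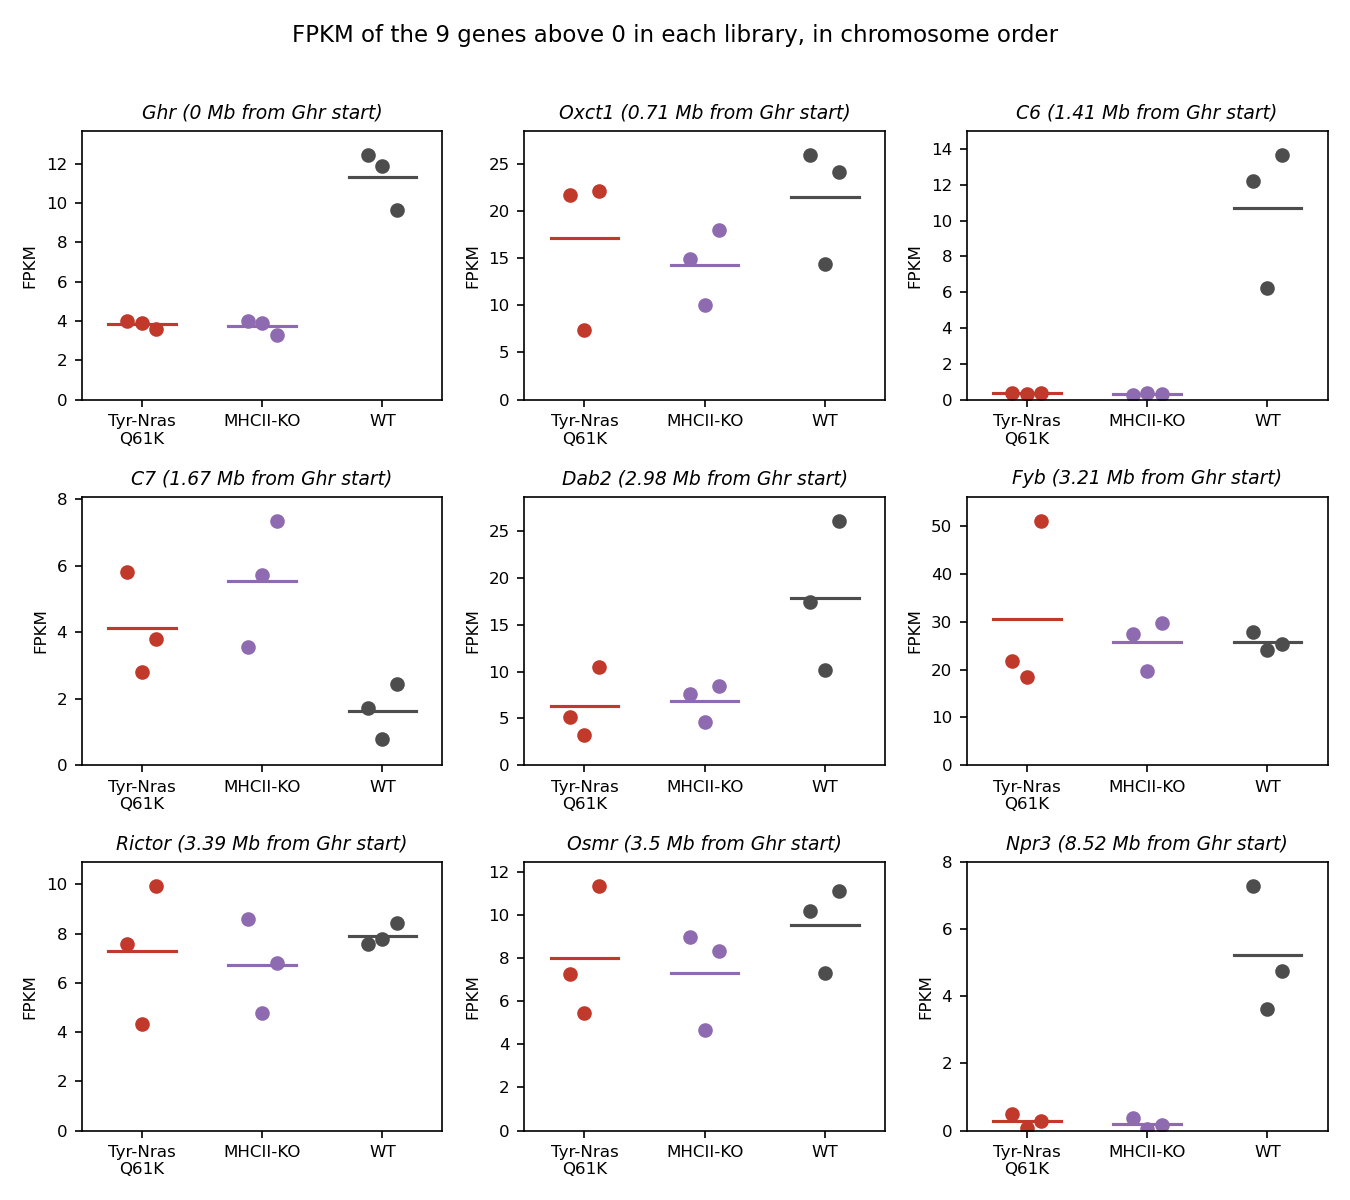
FPKM of the 9 genes that were above 0, in the order of their starts on the chromosome, with 1 point for each library, a line at the mean of each group, and the distance of each start from that of Ghr above the plot. In the plots of Ghr, C6 and Npr3 the 6 transgenic libraries lie below the WT libraries, in that of C7 they lie above them, and in those of Oxct1, Fyb, Rictor and Osmr the groups overlap.

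The 3 genes were chosen for their fall in Tyr-NrasQ61K against WT, but earlier results of these data were known at that point. The MHCII-KO libraries were also compared with the same 3 WT libraries, so this comparison is not independent of the choice. Of the 9 members tested, 3 were called by limma after Benjamini-Hochberg adjustment over 16587 genes, all of them lower in MHCII-KO than in WT. Over all genes 0.145% were called in this contrast and 0.0663% were called lower, but C6 and Npr3 could enter the test only through their WT values, and the count is no support for the choice of genes. C6 was at 0.318 ± 0.0453 FPKM in MHCII-KO libraries, 33.6-fold below WT (log2 fold change -3.08, adjusted p = 0.00396 from limma). Npr3 was at 0.185 ± 0.165 FPKM, 28.2-fold below WT (-2.36, adjusted p = 0.0156). Ghr was at 3.73 ± 0.375 FPKM, 3.04-fold below WT (-1.38, adjusted p = 0.0239).

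The calls of C6 and Npr3, and how they held under other settings, say nothing independent of the choice of these genes, since both passed the filter only through the WT libraries used to choose them. C6 kept its call in 19 of 20 alternatives and lost it with a minimum of 5 FPKM (adjusted p = 0.191, over a range of 1.86e-05 to 0.191). Npr3 kept its call in 12 of 19 alternatives, with a range of 0.000384 to 0.203, and lost it with a pseudocount of 0.1 (0.0978) or 0.01 (0.203) and without MHCII-KO replicate 1 (0.0506), replicate 2 (0.0683) or replicate 3 (0.0935), WT replicate 3 (0.0695) or both libraries that stood apart (0.0778). Ghr kept it in 9 of 20, with a range of 0.000800 to 0.166. It was lost with scaling by median ratios (0.109), by quantiles (0.132), with only the 2 groups in the fit (0.0561), without both libraries that stood apart (0.0979), and without Tyr-NrasQ61K replicate 1 (0.0522), WT replicate 1 (0.121), 2 (0.0658) or 3 (0.0695), or MHCII-KO replicate 1 (0.0846), 2 (0.0903) or 3 (0.166). The fold change of Ghr stayed between -1.60 and -1.12, that of C6 between -4.96 and -2.89 and that of Npr3 between -5.16 and -2.13 in these alternatives, the largest sizes being those with the small pseudocounts.

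The 2 transgenic groups were close to each other for all 3 genes. MHCII-KO against Tyr-NrasQ61K gave log2 fold changes of -0.05 for C6 (95% interval -0.64 to 0.54), -0.03 for Ghr (-0.40 to 0.34) and -0.11 for Npr3 (-0.68 to 0.47), and of 0.35 for C7 (-0.42 to 1.12). None of the 9 members was called by limma in this contrast, in which 0.0482% of all genes were, and none of the 9 reached an unadjusted p of 0.05. These intervals leave room for differences in either direction, so equal levels were not shown. The 6 tested neighbours had fold changes between -0.14 and 0.35.

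The 3 genes were not adjacent. On the build GRCm38 with GENCODE M21, and with the lower coordinate taken as the start on either strand, the order runs from Ghr (3317760 to 3583492) through Oxct1 (4026383 to 4155344), C6 (4727175 to 4814967), C7 (4988762 to 5063740), Dab2 (6299788 to 6440712), C9 (6445327 to 6498751), Fyb (6522853 to 6663313), Rictor (6708379 to 6800401) and Osmr (6813577 to 6874969) to Npr3 (11839896 to 11907287). C6 sits between Oxct1 and C7, and Npr3 lies 8.52 Mb from the start of Ghr. Ghr, C7, Osmr and Npr3 are on the minus strand and the other members on the plus strand. The tested genes on either side of each were looked at next.

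Beside Ghr, the plasma selenoprotein gene Sepp1, whose start is 0.049 Mb away, was at 365, 162 and 343 FPKM in Tyr-NrasQ61K libraries, 328, 237 and 441 in MHCII-KO libraries, and 741, 304 and 783 in WT libraries, so that the groups overlapped. Fbxo4, an F-box protein gene on the other side, was at 3.95 ± 0.889 and 3.88 ± 0.906 FPKM in the transgenic groups, against 6.01 ± 0.830 in WT libraries (SD, n = 3 each; log2 fold changes -0.51 and -0.53, adjusted p = 0.323 and 0.329 from limma). Next to C6 in the order of starts came the predicted gene Gm15632, whose start at 4069226 lies within the span of Oxct1. Gm15632 was at 4.60, 0 and 2.71 FPKM in Tyr-NrasQ61K libraries and 1.54, 2.13 and 3.56 in MHCII-KO libraries, against 0, 2.05 and 0.695 in WT libraries. On the other side of C6, C7 was higher in all transgenic libraries. Beside Npr3, the threonyl-tRNA synthetase gene Tars had log2 fold changes of -0.52 and -0.50, and Sub1, a transcriptional coactivator gene and the last gene tested in the window, of -0.82 and -0.73. None of these 6 flanking genes was called in either contrast with WT. The log2 fold changes of the 5 flanking genes other than C7 were between -1.04 and 0.93 in both contrasts.

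**Figure D3:**
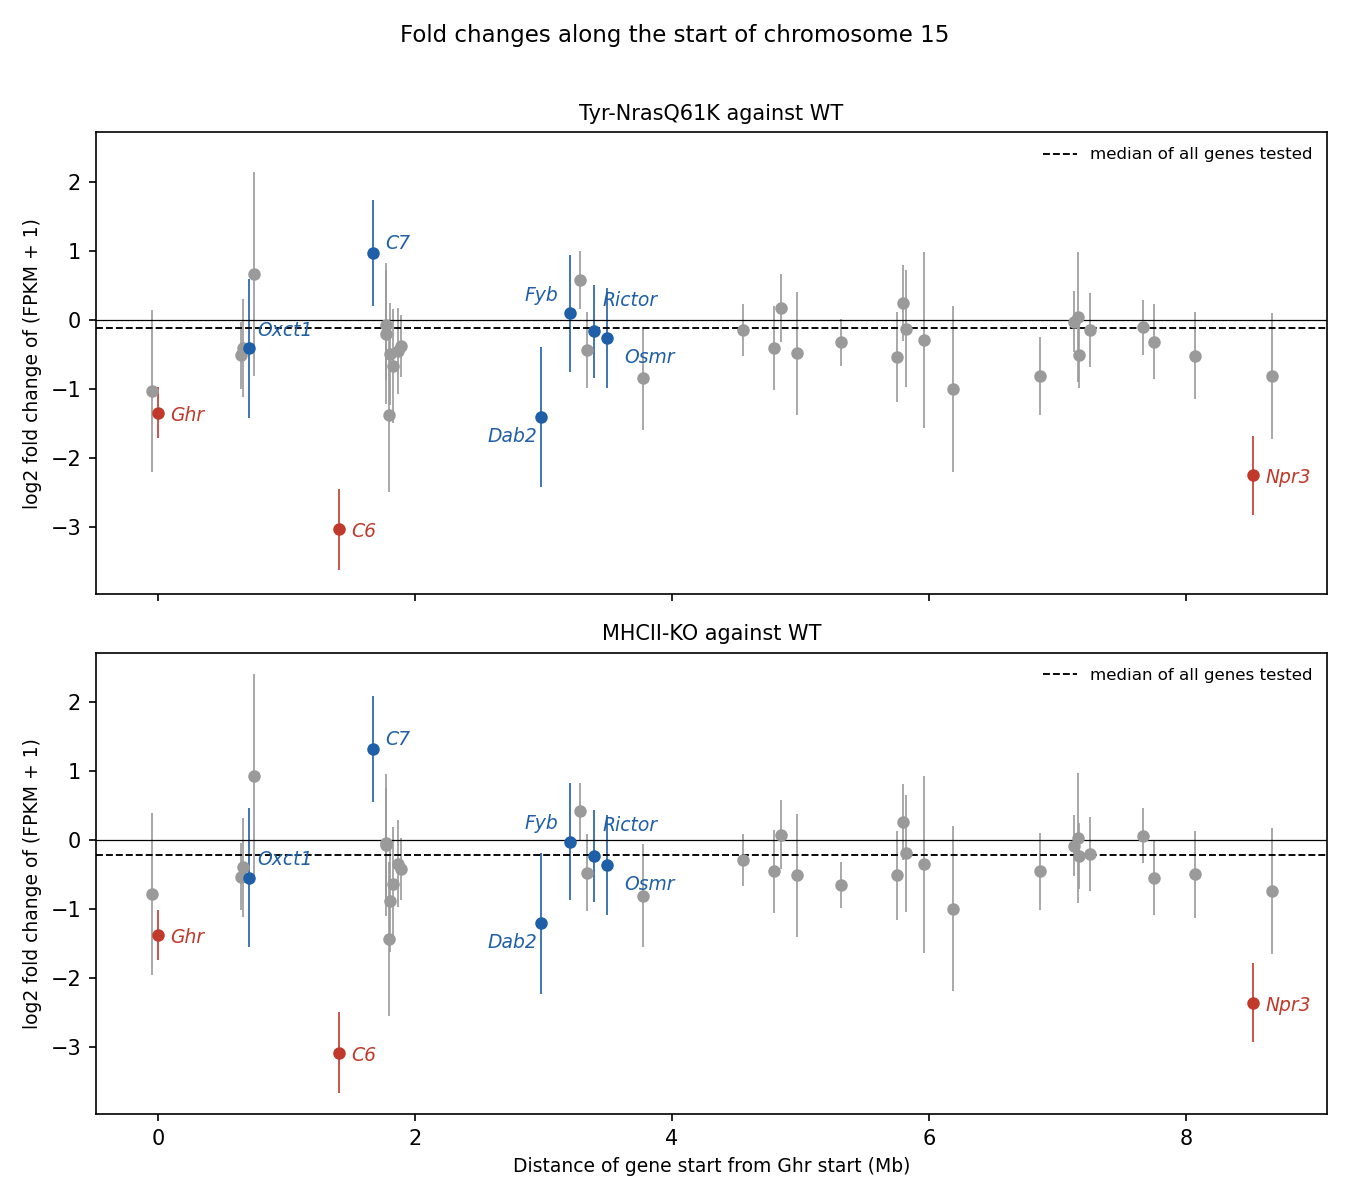
Log2 fold change of each of the 42 tested genes from the first 12 Mb of chromosome 15 against the distance of its start from that of Ghr, with 95% intervals from limma, for Tyr-NrasQ61K against WT (top) and MHCII-KO against WT (bottom). Red points are the 3 genes chosen for their fall, blue points the 6 tested neighbours and grey points the other 33 genes, and the dashed line is the median of all genes tested. C6 and Npr3 lie below all others in both plots, and Ghr, at -1.35 and -1.38, lies in the range of Dab2 and Rpl37. The intervals of the red points in the top plot are a description and no test, because these genes were chosen on that contrast.

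Among the other neighbours, Dab2 had the most negative fold change in both contrasts with WT. Its FPKM was 5.16, 3.18 and 10.5 in Tyr-NrasQ61K libraries, 7.56, 4.59 and 8.43 in MHCII-KO libraries, and 17.4, 10.1 and 26.1 in WT libraries. Tyr-NrasQ61K replicate 3 lay just above WT replicate 2, and the MHCII-KO libraries lay below all WT libraries, as did 23.4% of all genes. The log2 fold changes were -1.41 (SE 0.446, adjusted p = 0.266) and -1.21 (adjusted p = 0.329) from limma. They were called with weights for the libraries (0.00775 and 0.00638) and with the replicate block (0.0387 and 0.0441), the ranges over all alternatives being 0.00775 to 0.685 and 0.00638 to 0.746. Of 11 tested genes of clathrin-mediated uptake, Dab2 included, none was called, and the clathrin chains Clta and Cltc had log2 fold changes of -0.71 and -0.17 in Tyr-NrasQ61K and of -0.72 and -0.48 in MHCII-KO against WT.

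The remaining 4 neighbours overlapped between groups in both contrasts. Oxct1 was at 21.7, 7.38 and 22.2 FPKM in Tyr-NrasQ61K libraries, 14.9, 10 and 18.0 in MHCII-KO libraries, and 25.9, 14.3 and 24.1 in WT libraries. Replicate 2 was the lowest of each group for this gene. The log2 fold changes of Oxct1 were -0.41 and -0.55, the first of which turned to 0.07 without Tyr-NrasQ61K replicate 2, also when MHCII-KO replicate 2 was left out with it. None of the 6 genes of ketone body use was called.

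Fyb was at 21.8, 18.5 and 51.1 FPKM in Tyr-NrasQ61K libraries, 27.5, 19.8 and 29.8 in MHCII-KO libraries, and 27.8, 24.2 and 25.4 in WT libraries. One library, Tyr-NrasQ61K replicate 3, was far above the rest. Its fold changes of 0.09 and -0.02 changed sign under several alternatives, between -0.34 and 0.37 in the first contrast and between -0.14 and 0.26 in the second. None of the 10 tested genes of the Fyb adaptor list was called, among them Vav1, a guanine nucleotide exchange factor of T cells, at 31.3 ± 2.97, 30.4 ± 2.45 and 33.5 ± 5.26 FPKM in Tyr-NrasQ61K, MHCII-KO and WT libraries (SD, n = 3 each).

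Rictor was at 7.58, 4.33 and 9.91 FPKM in Tyr-NrasQ61K libraries, 8.59, 4.78 and 6.81 in MHCII-KO libraries, and 7.57, 7.76 and 8.41 in WT libraries. Both low values were again those of replicate 2 of the transgenic groups. The log2 fold changes were -0.17 and -0.24, and the first turned to 0.12 without Tyr-NrasQ61K replicate 2 and the second to 0.02 with median-ratio scaling. Of the 9 mTOR complex genes none was called. Rptor, the partner subunit of mTOR complex 1, was at 15.4 to 39.9 FPKM in Tyr-NrasQ61K, 12.5 to 25.0 in MHCII-KO and 8.83 to 12.6 in WT libraries, and Mapkap1, a subunit of mTOR complex 2, had log2 fold changes of -0.13 and -0.31.

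Osmr was at 7.26, 5.44 and 11.3 FPKM in Tyr-NrasQ61K libraries, 8.95, 4.66 and 8.33 in MHCII-KO libraries, and 10.2, 7.30 and 11.1 in WT libraries, with log2 fold changes of -0.26 and -0.36. The 3 groups covered much the same range. Il6st, the shared signalling chain, was at 28.2 ± 13.5 FPKM in Tyr-NrasQ61K and 29.1 ± 10.6 in MHCII-KO libraries, against 64.2 ± 22.4 in WT libraries (SD, n = 3 each). Its fold changes were -1.23 and -1.12 (adjusted p = 0.318 and 0.329 from limma). Both transgenic groups lay wholly below the WT libraries, as did 10.5% and 23.4% of all genes tested. Lifr, a receptor gene of the same family that also lies in the window, had fold changes of -0.85 and -0.81. None of the 7 tested genes of this family was called, and the oncostatin gene Osm was at 0.536 to 1.15 FPKM in Tyr-NrasQ61K, 1.15 to 1.24 in MHCII-KO and 1.01 to 1.21 in WT libraries.

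None of the 6 tested neighbours was called by limma in Tyr-NrasQ61K against WT, where 0.235% of all genes were, and at an unadjusted p below 0.05 there were 2, Dab2 and C7, in opposite directions. The window held 75 entries, of which 42 were tested, and of the 39 other than C6, Ghr and Npr3 none was called in either contrast with WT. At an unadjusted p below 0.05, 6 of the 39 were lower and 2 higher for Tyr-NrasQ61K, and 7 lower and 2 higher for MHCII-KO. Over all genes tested, 8.43% were lower and 6.79% higher by the same measure for Tyr-NrasQ61K, and 11.5% lower and 3.57% higher for MHCII-KO. With the replicate block 2 and 3 of them were called, with weights for the libraries 18 and 20, and without the filter on low values 1 in MHCII-KO against WT.

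The window leaned towards lower values in the transgenic groups. In size, 2 of the 39, Dab2 (-1.41) and Rpl37 (-1.39), came out beside Ghr (-1.35) in Tyr-NrasQ61K against WT, while none came near C6 or Npr3. The median log2 fold change of the 39 was -0.38 in Tyr-NrasQ61K and -0.40 in MHCII-KO against WT, beside -0.12 and -0.22 over all genes tested, and 32 of the 39 were below 0 in each contrast (82.1%, beside 59.1% and 67.5% of all genes). For Tyr-NrasQ61K, 9 of the 39 were below all WT libraries, or 23.1% beside 10.5% of all genes, and 2 above all of them. In MHCII-KO libraries 15 were below, or 38.5% beside 23.4% of all genes, and 2 above. Against protein-coding genes alone the picture was similar: the 34 protein-coding genes among the 39 had medians of -0.40 and -0.41, all protein-coding genes -0.17 and -0.25, and the 428 on the rest of chromosome 15 -0.12 and -0.18. Neighbouring genes are not replicates, so no test was made of this lean. It was smaller without both libraries that stood apart, with medians of -0.14 and -0.23 and with 25 and 28 of the 39 below 0, beside medians of -0.01 and -0.15 over all genes. Median-ratio scaling moved the median of all genes to 0.03 and 0.02 and that of the 39 to -0.23 and -0.16.

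The window genes with the smallest unadjusted p, besides Dab2 and C7, were of various kinds. Slc1a3, a glutamate transporter gene, was at 5.30, 5.16 and 4.84 FPKM in Tyr-NrasQ61K libraries, 3.99, 3.75 and 3.85 in MHCII-KO libraries, and 6.72, 5.93 and 7.38 in WT libraries. The libraries of each group lay close together and the 3 groups did not overlap, and the fold changes were -0.33 and -0.65 (adjusted p = 0.331 and 0.212 from limma). Of all genes tested, 10.5% lay wholly below WT for Tyr-NrasQ61K and 23.4% for MHCII-KO, and 3.1% were wholly lower in MHCII-KO than in Tyr-NrasQ61K libraries. Prlr, the prolactin receptor gene and thus a relative of Ghr, was at 0.955, 0.518 and 1.08 FPKM in Tyr-NrasQ61K libraries, 1.37, 1.05 and 1.68 in MHCII-KO libraries, and 1.68, 3.51 and 1.78 in WT libraries, with a fold change of -0.81 (adjusted p = 0.253) in Tyr-NrasQ61K and -0.46 in MHCII-KO against WT. The ribosomal protein gene Rpl37 was at 52.2 ± 23.2 and 49.4 ± 22.8 FPKM in the transgenic groups, against 131 ± 41.5 in WT libraries (SD, n = 3 each). Rpl37 is uncertain because Gm10250, a neighbouring predicted gene that may share its reads, was at 13.1 ± 4.40, 9.50 ± 0.800 and 19.2 ± 6.75 FPKM. Gm2245, another predicted gene, was higher in all transgenic libraries, with log2 fold changes of 0.58 and 0.42. Of all genes tested, 8.18% were wholly above WT for Tyr-NrasQ61K and 7.97% for MHCII-KO. Slc45a2, a melanocyte transporter gene in the same window, was at 0.153 to 0.416 FPKM for Tyr-NrasQ61K and 0.0574 to 0.340 FPKM for MHCII-KO, and was listed at 0 for every WT library, too low to be tested.

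The 3 genes were also set against their neighbours within each library. The mean log2(FPKM + 1) of C6, Ghr and Npr3 minus that of the 6 tested neighbours was -2.30, -1.82 and -2.84 in Tyr-NrasQ61K libraries, -2.41, -2.09 and -2.70 in MHCII-KO libraries, and -0.13, -0.26 and -0.52 in WT libraries. In a list of window genes named by hand, 46 were found and 33 tested. With C6, Ghr and Npr3 set aside because they were chosen for their fall, none of these was called. The 6 neighbours averaged 3.43, 2.74 and 3.85 in Tyr-NrasQ61K, 3.45, 3.02 and 3.61 in MHCII-KO and 3.64, 3.18 and 3.79 in WT libraries, so their levels overlapped between groups. The gap follows from the choice of the 3 genes in the Tyr-NrasQ61K and WT libraries and is a description there.

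The genes with the pattern most like each of the 3 were found by the root mean square difference of log2(FPKM + 1), centred on each gene, over the 9 libraries. Predicted genes, microRNA genes, features under 200 bases and genes without a match to GENCODE were left out, and 91.4% of the genes tested had a match. C6 was nearest to Apol7c, an apolipoprotein L family gene (0.269), Npr3 (0.431) and Cd209f, a C-type lectin gene (0.464). Apol7c is also on chromosome 15, but from 77524852 to 77533316, far outside the window. It was at 10.1 to 13.7 FPKM in Tyr-NrasQ61K, 8.32 to 12.6 in MHCII-KO and 47.6 to 95.7 in WT libraries. Ghr was nearest to the granzyme gene Gzmc (0.142), Glb1l2 (0.157) and the G protein subunit gene Gnai1 (0.174), on chromosomes 14, 9 and 5. Their group means were only 0.0686 to 0.328 FPKM in the transgenic groups and 1.93 to 2.06 in WT libraries. These means fell 6.16- to 28.2-fold, against 2.96- and 3.04-fold for Ghr. The likeness to Ghr thus holds on the log2(FPKM + 1) scale, which understates the change of low genes. Npr3 was nearest to the chemokine genes Ccl17 (0.253), Ccl12 (0.259) and Cxcl9 (0.260), on chromosomes 8, 11 and 5. Among the 3 genes themselves the difference was 0.431 between C6 and Npr3, 0.508 between Npr3 and Ghr and 0.861 between C6 and Ghr. Each of the 9 nearest genes other than Npr3 thus lies outside the first 12 Mb of chromosome 15, where only 42 of the 16587 genes tested were placed.

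The summed levels of adipocyte, vessel and dendritic cell markers were mostly lower in the transgenic groups, as were Ghr, Npr3 and C6, and their part in these results was not tested. The 12 adipocyte markers summed to 72.4 to 245 FPKM for Tyr-NrasQ61K and 94.4 to 216 FPKM for MHCII-KO, against 337 to 595 in WT libraries. All 12 were below 0 in both contrasts, with median log2 fold changes of -1.74 and -1.71 and none called, though 10 and 9 had an unadjusted p below 0.05. Over all genes tested, 59.1% and 67.5% were below 0, the medians were -0.12 and -0.22, and 8.43% and 11.5% were lower at an unadjusted p below 0.05. The 10 vessel markers summed to 104 to 642 and 134 to 373 FPKM in the transgenic groups, against 597 to 1472 in WT libraries. These sums rest largely on 1 gene, Glycam1, at 50.7 to 524, 69.3 to 272 and 502 to 1282 FPKM in Tyr-NrasQ61K, MHCII-KO and WT libraries. All 10 were below 0, and 3 and 2 of them were lower at an unadjusted p below 0.05 from limma. The 11 dendritic cell markers summed to 63.4 to 124 and 73.4 to 94.0 FPKM, against 124 to 179 in WT libraries, with 10 of 11 below 0 and Ccl17 called in each contrast. The 11 macrophage markers summed to 239 to 369 and 266 to 417 FPKM, against 280 to 689 in WT libraries. Of the 10 tested, 7 and 6 were below 0, near the share of all genes. At an unadjusted p below 0.05 from limma, 4 of these 10 were lower and 0 higher in each contrast. Over all genes tested, 8.43% and 11.5% were lower by this measure. None of the macrophage markers was called. The 14 markers of fibroblasts and pericytes summed to 299 to 437 and 319 to 400 FPKM, against 293 to 688 in WT libraries, with 8 of 14 below 0 in each contrast, no more than the share of all genes. The 8 T cell markers covered 164 to 383, 153 to 258 and 195 to 314 FPKM in Tyr-NrasQ61K, MHCII-KO and WT libraries, and the 7 B cell markers 280 to 613, 314 to 470 and 479 to 610 FPKM. The 10 melanocyte markers summed to 15.2 to 21.7 and 10.2 to 17.1 FPKM, against 10.01 to 13.4 in WT libraries, and Dct was called as higher in Tyr-NrasQ61K against WT. Of the 6 tested, 1 and 2 were below 0 in the contrasts with WT. Among these was Kit, which was not called, at 3.63 ± 1.81 and 3.26 ± 1.60 FPKM in the transgenic groups against 6.52 ± 1.20 in WT libraries (SD, n = 3 each). The sums thus mix markers that rose with 1 that fell. The 6 hepatocyte markers, of interest because the liver makes terminal complement, summed to at most 6.99 FPKM in any library, and Apoa1 and Ttr, 2 of their defining genes, were listed at 0 throughout.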

How the data were processed

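RNA from lymph nodes of 3 groups of mice, with 3 libraries per group, was extracted with a Qiagen kit, and all libraries were run together on an Illumina Genome Analyzer IIx. The FPKM values are those the authors deposited, and the submitters' processing notes name TopHat, Cufflinks and Cuffdiff with the build mm10. Versions, annotation and read filters: not given in the sources used here. Because FPKM hold no counts, depth was only estimated.

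Of 37819 entries, 18 with several values per library were left out, and 86.8% of the 37801 used were matched to GENCODE M21. Groups came from the sample titles. The 16587 genes that reached 1 FPKM in 3 or more libraries were put on the log2 scale with a pseudocount of 1. The 3 group means were then estimated with limma 3.58.1 (R 4.3.3), whose variance prior followed the mean level. Genes were called where the p adjusted by Benjamini-Hochberg over all genes tested was 0.05 or less, two-sided. The fit was tested on simulated data. Fragments behind a value were estimated from the depth and the longest GENCODE transcript. Promoter sequences came from RefSeq. Python 3.11.15 made tables and plots.

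The members and 18 gene lists were chosen with earlier results of these data known. Named genes were the members, up to 4 other window genes with the smallest unadjusted p in each contrast with WT, the called genes and up to 2 genes of highest mean of each pathway list, and the 3 genes of nearest pattern. One gene that this rule names is not reported here. The flanking genes, Slc45a2, Jak2, Stat5b, Igf1, Npr2, the peptide genes, Hc, the C8 genes, Cd59a, Osm and the genes that check the labels were added after their values were seen, for their position or role. The 20 alternatives were 2 pseudocounts, 2 filters, 2 scalings between libraries, a replicate block, weights for the libraries, each library left out, both libraries that stood apart left out, only the 2 groups compared in the fit, and protein-coding genes only.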

Additional observations from a re-analysis of the deposited data

How the results depend on the processing

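The number of members called in MHCII-KO against WT, 3 in the fit reported, was 1 with a minimum of 5 FPKM, 5 with weights for the libraries, 1 without both libraries that stood apart, and 1 to 3 with single libraries left out. The number of the 6 tested neighbours called in Tyr-NrasQ61K against WT, 0 in the fit reported, was 1 with the replicate block and 2 with weights for the libraries. Of the other window genes, 2 in Tyr-NrasQ61K and 3 in MHCII-KO against WT were called with the replicate block, 18 and 20 with weights for the libraries, and 1 in MHCII-KO against WT without a filter on low values. These settings also changed the calls over all genes, to 894 and 777 with the replicate block and 5076 and 7407 with the weights, beside 39 and 24 in the fit reported, and to 105 and 108 with protein-coding genes only. The cause of these changes was not tested. With group means removed, correlations of same-numbered libraries ran from -0.04 to 0.33. Libraries with different numbers were not compared in this way, so whether the replicate numbers pair the libraries was not settled.

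Of 865 fold changes recomputed, 793 kept their direction and their side of the threshold or moved by less than the spread, 30 newly passed it, 19 no longer passed it, 6 without a test moved further, and 17 changed sign. The filters, the replicate block, the fits of fewer genes or groups and the removal of a library from the group not compared cannot change the fold change itself. The count of 793 is therefore no measure of how stable the fold changes are. With weights for the libraries Fyb came to -0.20 in Tyr-NrasQ61K and 0.11 in MHCII-KO against WT. With median-ratio scaling Fyb came to 0.26 and Rictor to 0.0174 in MHCII-KO against WT, and Ghr to 0.04168 in MHCII-KO against Tyr-NrasQ61K. With quantile normalization Fyb came to 0.23 and Ghr to 0.0787 in the same contrasts. Without both libraries that stood apart, Oxct1 came to 0.0727 and Rictor to 0.12 in Tyr-NrasQ61K against WT, and Fyb to 0.15 in MHCII-KO against WT. With single libraries left out, the fold changes in Tyr-NrasQ61K against WT ran from -0.67 to 0.0727 for Oxct1, -0.34 to 0.37 for Fyb and -0.40 to 0.12 for Rictor, that of Fyb in MHCII-KO against WT from -0.14 to 0.15, and those in MHCII-KO against Tyr-NrasQ61K from -0.07358 to 0.0355 for Ghr and -0.24 to 0.0113 for Npr3.

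C6 and Npr3 rest on few fragments in the transgenic libraries, and Npr3 could not be fitted with a minimum of 5 FPKM. Low depth in replicate 2 of both transgenic groups limits the values there.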
